A study of Mus musculus with 24 samples.

Results

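The comparison was between NK cells from tumour-bearing lung and NK cells from the spleen of naive animals, both of wild-type (WT) genotype, in bulk RNA sequencing of mouse NK cells. Of the 24 libraries of the series, the 8 compared were chosen by their labels: 4 labelled as derived from tumour-bearing lung of WT mice, and 4 labelled as spleen-derived, naive and WT. The series also holds 4 lung and 4 naive spleen libraries from FcRγ knockout (KO) animals, used here for a side-by-side comparison. A further 8 libraries, from spleen NK cells given IL-15, share only the gene filter, the scaling and the estimate of spread. The treatment label reads naive for the lung libraries too, so no group compared here had received IL-15 by its label. The tumour, the strain, age and sex of the mice, the way NK cells were isolated from each organ and whether each library is a separate animal could not be read from the labels. Organ, tumour and any difference in isolation changed together between WT lung and WT naive spleen and cannot be told apart. The series' design text describes 4 biological replicates per condition without naming the animals, and p-values measure the spread between these libraries. In bulk RNA, fewer cells of a type and less RNA per cell cannot be told apart.

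NK cells are innate lymphocytes that kill infected, stressed or transformed cells by releasing perforin and granzymes and that secrete IFN-γ and chemokines. They read their surroundings through activating receptors that signal through ITAM adaptors, inhibitory receptors for MHC class I, and cytokine receptors. A stimulus sensed by such receptors is followed within a short time by immediate-early transcription: AP-1, EGR and NR4A factors, with feedback inhibitors of MAP kinases and NF-κB among the same early transcripts. The spleen holds recirculating NK cells, which leave tissue along sphingosine-1-phosphate, whereas the lung holds NK cells in and along its dense capillary bed.

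WT lung and WT naive spleen differed over much of the transcriptome. Of 14275 genes tested with edgeR's quasi-likelihood test at an adjusted p under 0.05, 4171 were higher in WT lung (29.2% of genes tested) and 2850 were lower (20%). At least a 2-fold change was fitted for 2593 of the higher genes (18.2%) and 599 of the lower ones (4.2%). The libraries of the groups did not overlap for 3363 genes higher in lung (23.6%) and 2387 lower in lung (16.7%). Fitted alone, the 8 WT libraries gave 3229 higher and 2785 lower of 12647 genes tested. Of those calls 53.7% were higher, against 59.4% in the main fit. Library totals were 9.77 M counts in WT lung replicate 1, 24.73 to 26.98 M in WT lung replicates 2 to 4, and 24.58 to 32.10 M in WT naive spleen. WT lung replicate 1 also stood apart on the second principal component of the 8 libraries, at 92.6 against −34.1 to 9 for the others. The change followed gene length and base composition: the median log2 change was 0.556 for genes with 10 kb or more of exons and −0.214 for those under 1.5 kb. Without lung replicate 1 these were 0.658 and −0.407. Set against the spleen mean, that library's medians were 0.122 for the long class and 0.174 for the short one, while lung replicates 2 to 4 were at 0.493 to 0.517 and at −0.286 to −0.221. Split into 5 classes of GC content, it was −0.257 in the lowest class and 0.541 in the highest. With an offset for length and GC the calls were 3439 higher and 3433 lower of 14063 genes tested (50% higher, against 59.4% without it). Of the 7021 calls of the main fit, 5153 kept their call and direction, and 441 took the other sign. Upper-quartile scaling gave 3675 higher and 3618 lower (50.4% higher) and placed the median log2 change of all genes at −0.04, against 0.08 with TMM, so a log2 change of about 0.1 is within the reach of scaling alone. Counts are therefore given below with the offset wherever it changes the balance of a gene group. Each count is to be read beside the shares over all genes tested, 29.2% higher and 20% lower as fitted. Counts near those shares do not set a gene group apart from other genes.

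Hspa1a, Sik1, Atf3, Plk2, Fosb, Ppp1r15a, Nr4a1 and Nr4a2, all genes known to respond to stimuli, were among the 12 largest increases of genes with at least 50 CPM in WT lung. Short sequences through which such genes are known to be switched on were then looked for around the starts of stimulus-response genes. The cAMP response element (TGACGTCA) is bound by CREB-family factors, the κB element (GGG and TTTCC with any 2 bases between) by NF-κB dimers, and the heat shock element (GAA, TTC and GAA with any 2 bases between neighbours) by HSF1. Each motif was searched on both strands of RefSeq promoter windows from 250 bases before to 50 bases after a transcript's start (GRCm38.p6). The 7 windows below belong to genes described in the next paragraphs and were chosen because they hold a match. They do not stand for the other genes described there. Each is written 5′ to 3′ on the gene's strand, with the match on either strand in capitals. The first 4 hold a cAMP response element, the next 2 a κB element and the last a heat shock element.
Ppp1r15a, chr7:45526219-45526518, − strand: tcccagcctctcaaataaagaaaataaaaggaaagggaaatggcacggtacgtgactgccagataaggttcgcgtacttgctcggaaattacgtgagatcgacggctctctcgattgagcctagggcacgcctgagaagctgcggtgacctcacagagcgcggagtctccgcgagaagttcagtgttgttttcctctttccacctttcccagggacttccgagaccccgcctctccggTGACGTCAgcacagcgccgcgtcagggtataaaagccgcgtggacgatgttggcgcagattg
Plk2, chr13:110394794-110395093, + strand: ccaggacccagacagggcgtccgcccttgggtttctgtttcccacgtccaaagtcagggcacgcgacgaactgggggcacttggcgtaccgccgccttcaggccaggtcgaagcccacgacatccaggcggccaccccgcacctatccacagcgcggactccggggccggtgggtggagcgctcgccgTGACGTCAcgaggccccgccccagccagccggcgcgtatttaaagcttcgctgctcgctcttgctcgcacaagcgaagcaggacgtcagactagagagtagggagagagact
Dusp1, chr17:26508423-26508722, − strand: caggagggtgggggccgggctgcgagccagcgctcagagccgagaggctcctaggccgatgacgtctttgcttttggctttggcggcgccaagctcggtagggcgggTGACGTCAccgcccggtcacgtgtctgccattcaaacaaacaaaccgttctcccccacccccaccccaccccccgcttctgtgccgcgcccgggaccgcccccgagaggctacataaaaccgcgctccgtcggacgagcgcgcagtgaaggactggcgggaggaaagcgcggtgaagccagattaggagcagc
Maff, chr15:79347270-79347569, + strand: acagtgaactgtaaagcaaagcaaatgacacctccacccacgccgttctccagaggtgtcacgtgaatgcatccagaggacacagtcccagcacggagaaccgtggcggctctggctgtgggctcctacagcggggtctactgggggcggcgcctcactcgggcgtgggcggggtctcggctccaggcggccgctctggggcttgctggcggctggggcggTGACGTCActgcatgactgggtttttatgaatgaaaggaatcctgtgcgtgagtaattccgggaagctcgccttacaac
Tnfaip3, chr10:19015361-19015660, − strand: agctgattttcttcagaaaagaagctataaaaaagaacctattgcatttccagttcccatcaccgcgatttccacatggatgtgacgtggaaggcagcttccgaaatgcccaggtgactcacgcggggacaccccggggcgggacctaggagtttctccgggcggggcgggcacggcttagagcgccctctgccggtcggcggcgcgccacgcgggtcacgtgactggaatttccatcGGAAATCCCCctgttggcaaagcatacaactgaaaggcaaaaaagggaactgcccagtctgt
Nfkbia, chr12:55492598-55492897, − strand: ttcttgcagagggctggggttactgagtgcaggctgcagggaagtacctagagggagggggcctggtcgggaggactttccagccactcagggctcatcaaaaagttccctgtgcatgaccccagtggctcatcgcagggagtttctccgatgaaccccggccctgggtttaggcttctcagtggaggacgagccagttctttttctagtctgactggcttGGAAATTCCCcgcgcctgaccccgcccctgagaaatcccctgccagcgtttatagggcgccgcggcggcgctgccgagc
Hsph1, chr5:149636266-149636565, − strand: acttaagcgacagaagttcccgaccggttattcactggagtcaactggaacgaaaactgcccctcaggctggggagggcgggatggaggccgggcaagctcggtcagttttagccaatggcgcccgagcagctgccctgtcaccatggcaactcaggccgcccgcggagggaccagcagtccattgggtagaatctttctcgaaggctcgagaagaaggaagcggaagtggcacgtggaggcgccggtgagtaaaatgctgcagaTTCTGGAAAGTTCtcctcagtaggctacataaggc
Relative to the start, the matches began at −12 in Ppp1r15a, −62 in Plk2, −143 in Dusp1, −29 in Maff, −12 in Tnfaip3, −29 in Nfkbia and 15 in Hsph1. Maff has 3 windows and Tnfaip3 and Hsph1 have 2 each, of which the first by genomic position that holds the match is shown. The Tnfaip3 window also holds an AP-1 element (TGACTCA), which does not overlap the κB match. Over all 32851 windows, the cAMP response element was in 1.79%, the AP-1 element in 5.2%, the κB element in 1.63% and the heat shock element in 0.603%. Windows were found for 27 of the immediate-early and AP-1 genes, and 3 of the 27 (11.1%, against 2.03% of all genes with a window) held a cAMP response element: Btg2, Maff and Ppp1r15a. In the same 27 genes 1 (3.7%) held an AP-1 element, Csrnp1, against 5.95% of all genes with a window, and none held a κB or heat shock element. Among 13 MAP kinase phosphatase and Sprouty-family genes, Dusp1 and Dusp8 held a cAMP response element, Dusp5 held a κB element and none held an AP-1 element. Of 17 NF-κB genes, 5 held a κB element (29.4%, against 1.89% of all genes with a window): Cyld, Nfkb2, Nfkbia, Rel and Tnfaip3. Of 18 heat shock genes, 4 held a heat shock element (22.2%, against 0.662% of all genes): Chordc1, Hspd1, Hspe1 and Hsph1. A match describes letters in the window and is no measure of binding. The shares count all list members with a window, whatever their change, and Cyld and Chordc1 held their element and fell in WT lung. The NF-κB and heat shock lists were put together around these pathways. Their shares describe the lists and not the difference between WT lung and WT naive spleen.

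Immediate-early genes stood far higher in WT lung than in WT naive spleen. Of 35 immediate-early and AP-1 genes tested, 29 were higher and 1 lower, with a median log2 change of 1.89 (all genes 0.08), and with the length and GC offset 30 were higher and 2 lower. Nr4a1, an orphan nuclear receptor that antigen-type receptors induce in lymphocytes, had 1074, 1013, 1077 and 924 CPM in WT lung, against 30.5, 23.1, 21.2 and 41.1 CPM in WT naive spleen (log2 change 5.14 ± 0.19, adjusted p = 6.47e-16). Values stand in the order of replicates 1 to 4 here and throughout. Unless marked SD, ± is an approximate standard error from the fit over all 24 libraries. It is the size of the log2 change divided by the square root of the test's F value, and is rough for genes near 0 in either group. For Nr4a1, all 4 lung libraries lay far above the highest spleen library and close to each other. Nr4a2 had 261, 295, 416 and 355 CPM in WT lung, against 12.7, 6.04, 11.7 and 10.6 CPM in WT naive spleen (log2 change 5.01 ± 0.26, adjusted p = 1.42e-13), and Nr4a3 changed less, by 2.88 ± 0.17. Of the AP-1 subunits, Fos had 703, 612, 664 and 630.0 CPM in WT lung, against 66.6, 40.7, 31.8 and 63.1 CPM in WT naive spleen (log2 change 3.69 ± 0.20, adjusted p = 3.30e-13). Jun, its dimer partner, had 971, 765, 723 and 791 CPM in WT lung, against 49.9, 31.3, 17.2 and 32.3 CPM in WT naive spleen (log2 change 4.64 ± 0.25, adjusted p = 2.37e-13). The lung libraries were clearly separated from the spleen libraries for both. Fosb (log2 change 5.41 ± 0.36), Fosl2 (3.6 ± 0.18), Junb (2.55 ± 0.21) and Jund (1.93 ± 0.19) rose with them. Per kb of exon, Junb had the highest lung level of these 6 subunits, 1194 CPM per kb in WT lung and 204 CPM per kb in WT naive spleen.

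The small Maf factor Maff, which lacks an activation domain and dimerises with other bZIP factors, had 32.4, 25.6, 25.6 and 28.3 CPM in WT lung, against 1.09, 0.637, 0.786 and 0.824 CPM in WT naive spleen (log2 change 5.06 ± 0.24, adjusted p = 2.76e-14). Its relative Mafk, already expressed in spleen, rose by 1.75 ± 0.09. Atf3, a stress-induced bZIP repressor, had 81.9, 81.4, 76.1 and 103 CPM in WT lung, against 2.21, 1.69, 2.096 and 1.25 CPM in WT naive spleen (log2 change 5.57 ± 0.34, adjusted p = 1.92e-12). Ppp1r15a, whose product GADD34 brings phosphatase 1 to eIF2α and restores translation after stress, had 607, 548, 534 and 509.7 CPM in WT lung, against 20.9, 12.2, 7.73 and 15.4 CPM in WT naive spleen (log2 change 5.29 ± 0.21, adjusted p = 9.23e-16). Plk2, a polo-like kinase of early G1 that is not on the list, had 100.5, 104, 100.5 and 122 CPM in WT lung, against 1.98, 1.95, 2.27 and 1.98 CPM in WT naive spleen (log2 change 5.71 ± 0.25, adjusted p = 3.81e-15). Maff, Atf3, Ppp1r15a and Plk2 were low in every spleen library, and all lung libraries lay far above that range. Ier5l, a nuclear protein gene of the immediate-early family, had 95.3, 77.3, 54.1 and 52.2 CPM in WT lung, against 1.204, 0.525, 0 and 0.429 CPM in WT naive spleen (log2 change 6.98 ± 0.44, adjusted p = 4.04e-12), and 1 spleen library held no read of it. Klf4, a zinc finger factor that holds lymphocytes in quiescence, had 60.1 ± 7.55 CPM in WT lung and 2.67 ± 0.748 CPM in WT naive spleen (SD, n = 4 each; 4.48 ± 0.24). Klf6 rose by 1.34 ± 0.09.

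Egr1 and Egr3, factors that follow ERK signalling, moved in different directions. Egr1 had 69, 87.9, 74.9 and 106 CPM in WT lung, against 20.1, 13.5, 23.9 and 33.9 CPM in WT naive spleen (log2 change 1.89 ± 0.24, adjusted p = 4.46e-07). Egr3 had 1.29, 1.01, 0.9905 and 1.04 CPM in WT lung, against 3.85, 2.02, 1.96 and 6.92 CPM in WT naive spleen and was the 1 gene of the list that fell (log2 change −1.81 ± 0.43, adjusted p = 0.00105). The lung libraries lay above the spleen libraries for Egr1 and below them for Egr3, which was near 1 CPM in all 4 lung libraries. Btg1, an antiproliferative factor of resting lymphocytes, stood at 2569 ± 47.9 CPM in WT lung and 1346 ± 111 CPM in WT naive spleen (SD, n = 4 each; 0.93 ± 0.09).

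**Figure D1:**
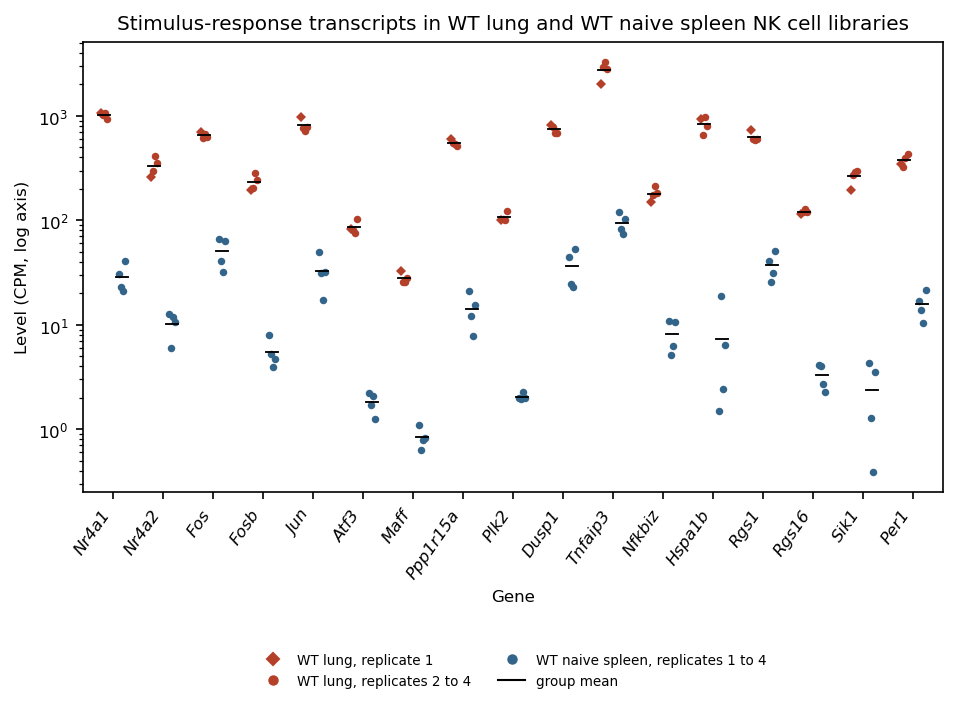
Level of 17 stimulus-response genes in each library (CPM, log axis). WT lung libraries are red, with replicate 1 as a diamond, WT naive spleen libraries are blue, and black bars are group means. For every gene shown, all 4 lung libraries lie above all 4 spleen libraries, and Nr4a1 stands at 924 to 1077 CPM in lung. Several were named by a rule that asks for no overlap, and Fos and Jun after their values were seen. Of all genes tested, 23.6% were higher in lung without overlap.

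Feedback inhibitors of MAP kinase signalling rose as well. Of 13 dual-specificity phosphatase, Sprouty and Spred genes tested, 10 were higher and none lower (median log2 change 1.9, and 9 higher and 1 lower with the length and GC offset). Dusp1, the nuclear phosphatase that inactivates p38 and JNK, had 823, 786, 679 and 691 CPM in WT lung, against 44.6, 24.8, 22.8 and 52.8 CPM in WT naive spleen (log2 change 4.36 ± 0.20, adjusted p = 1.03e-14). Dusp5, a phosphatase for nuclear ERK, had 1149, 1112, 1121 and 1093 CPM in WT lung, against 203, 178, 149.9 and 175 CPM in WT naive spleen (log2 change 2.66 ± 0.14, adjusted p = 9.04e-14). The 4 lung libraries lay within a narrow band for Dusp5, well above the spleen libraries. Dusp2, a lymphocyte phosphatase, rose by 2.00 ± 0.18, and Dusp8, a JNK and p38 phosphatase, had 17.98, 14.9, 13.5 and 11.04 CPM in WT lung and 0.427, 0.07497, 0 and 0 CPM in WT naive spleen. Spry2, a Sprouty inhibitor of receptor signalling to ERK, had 896 ± 78.04 CPM in WT lung and 239 ± 60.7 CPM in WT naive spleen (SD, n = 4 each; 1.9 ± 0.13).

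In the NF-κB pathway Tnfaip3, Nfkbiz, Nfkbia and Nfkbid rose, and Cyld fell. Of 21 genes, 17 were higher and 1 lower (median 0.93), with 14 higher and 3 lower after the length and GC offset. Tnfaip3 encodes A20, the ubiquitin-editing enzyme that shuts off signalling to NF-κB; it had 2005, 2953, 3283 and 2834 CPM in WT lung, against 120.5, 81.7, 74.01 and 103 CPM in WT naive spleen (log2 change 4.87 ± 0.19, adjusted p = 9.23e-16). Replicate 1 was the lowest of the 4 lung libraries and still far above every spleen library. Nfkbiz, an atypical nuclear IκB, had 149, 176, 212 and 183 CPM in WT lung, against 10.9, 5.098, 6.24 and 10.7 CPM in WT naive spleen (log2 change 4.45 ± 0.22, adjusted p = 3.16e-14). Nfkbia, which encodes IκBα and is itself induced by NF-κB, had 778, 461, 391 and 373 CPM in WT lung, against 124, 114, 129 and 109 CPM in WT naive spleen (log2 change 2.07 ± 0.17, adjusted p = 6.27e-10), with replicate 1 well above the other lung libraries. Nfkbid rose by 2.96 ± 0.22. The subunit gene Nfkb1 did not pass, at 267 ± 48.4 CPM in WT lung and 278 ± 37.1 CPM in WT naive spleen (SD, n = 4 each; log2 change −0.06 ± 0.12, adjusted p = 0.738), and the offset gave it −0.48 with an adjusted p of 4.06e-05. Cyld, a deubiquitinase that opposes NF-κB signalling, was the 1 gene that fell (87.6, 120.5, 119 and 104 CPM in WT lung, against 155, 154, 173 and 174 CPM in WT naive spleen; log2 change −0.60 ± 0.12, adjusted p = 2.20e-04). Kdm6b, a histone H3K27 demethylase gene not on that list, had 129.9, 191, 212 and 196 CPM in WT lung, against 6.76, 4.498, 3.84 and 9.06 CPM in WT naive spleen (log2 change 4.91 ± 0.27, adjusted p = 2.84e-13).

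Heat shock genes were higher in WT lung, led by the inducible HSP70 pair. Of 22 heat shock genes, 18 were higher and 1 lower (median 0.83; 16 and 0 with the offset). Hspa1a had 488, 300.2, 445 and 417 CPM in WT lung, against 0.3497, 0.375, 0 and 1.15 CPM in WT naive spleen (log2 change 9.67 ± 0.73, adjusted p = 7.79e-11), and the spleen libraries held few or no reads. Hspa1b, which encodes the same protein, had 938, 661, 970.0 and 804 CPM in WT lung, against 1.48, 18.9, 2.45 and 6.39 CPM in WT naive spleen (log2 change 6.84 ± 0.69, adjusted p = 1.45e-08). The counting could split reads between these near-identical genes, and their separate values are uncertain. Both were high in every lung library and low in every spleen library, replicate 2 being the highest of the spleen group for Hspa1b. The constitutive HSP70 gene Hspa8 did not pass (4904, 5319, 4136 and 5194 CPM in WT lung, against 2612, 5190.0, 4642 and 4864 CPM in WT naive spleen; log2 change 0.18 ± 0.15, adjusted p = 0.354), and 3 of its spleen libraries lay within the lung range. Hsp90aa1, the inducible HSP90 gene, had 1867 ± 254 CPM in WT lung and 843 ± 239.9 CPM in WT naive spleen (SD, n = 4 each; log2 change 1.15 ± 0.16, adjusted p = 1.53e-06), and the constitutive Hsp90ab1 rose by 0.89 ± 0.10. Hsf1, the master factor of the response, had 44.9, 43.3, 43.98 and 51.2 CPM in WT lung, against 20.1, 14.7, 11.9 and 20.3 CPM in WT naive spleen (log2 change 1.45 ± 0.17, adjusted p = 1.06e-07). Hsph1, an HSP110 nucleotide exchange factor, had 312, 658, 584 and 682 CPM in WT lung, against 158, 375, 211 and 271 CPM in WT naive spleen (log2 change 1.14 ± 0.27, adjusted p = 0.00108), where lung replicate 1 lay inside the spleen range. Chordc1, an HSP90 cochaperone gene whose promoter holds the heat shock element, was the 1 that fell (log2 change −0.41 ± 0.16, adjusted p = 0.0366), with overlapping libraries and an adjusted p of 0.287 with the offset.

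G protein and cyclic AMP regulators changed in both directions. Of 23 RGS and cyclic AMP genes, 15 were higher and 6 lower (median 0.71), and 12 and 7 with the offset. Rgs1, which dampens chemokine receptor signalling and is a known marker of lymphocytes that stay in tissue, had 729, 601, 593 and 605 CPM in WT lung, against 40.4, 25.5, 31.4 and 50.99 CPM in WT naive spleen (log2 change 4.09 ± 0.16, adjusted p = 9.23e-16). Rgs2 had 738 ± 122 CPM in WT lung and 89.4 ± 9.76 CPM in WT naive spleen (SD, n = 4 each; 3.04 ± 0.14). Rgs16 had 116, 119, 128 and 121 CPM in WT lung, against 4.12, 4.01, 2.71 and 2.27 CPM in WT naive spleen (log2 change 5.21 ± 0.26, adjusted p = 3.84e-14). All 3 RGS genes separated lung from spleen without overlap. Crem, whose short product ICER is a cyclic AMP-induced repressor, had 239, 194, 229 and 198 CPM in WT lung, against 23.2, 28, 32.7 and 30.8 CPM in WT naive spleen (log2 change 2.91 ± 0.14, adjusted p = 2.74e-14). Sik1, a kinase induced by cyclic AMP that restrains CREB coactivators and not on that list, had 194, 274, 291 and 298 CPM in WT lung, against 4.31, 1.27, 0.393 and 3.56 CPM in WT naive spleen (log2 change 6.77 ± 0.38, adjusted p = 4.21e-13). Pde4d, a phosphodiesterase that degrades cyclic AMP, had 34.1 ± 6.59 CPM in WT lung and 2.77 ± 0.936 CPM in WT naive spleen (SD, n = 4 each; 3.63 ± 0.27).

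Of the receptors that raise cyclic AMP, Adora2a, an adenosine receptor, rose by 0.81 ± 0.10. Ptger2, a receptor for prostaglandin E2, had 1.41, 2.695, 2.77 and 2.69 CPM in WT lung, against 7.15, 16.2, 13.2 and 9.59 CPM in WT naive spleen and fell (log2 change −2.22 ± 0.26, adjusted p = 1.43e-07). No library overlapped between the groups for Adora2a or Ptger2. Prkar1a, the regulatory subunit that holds protein kinase A inactive, fell (log2 change −0.67 ± 0.12, adjusted p = 3.79e-05). Gnas, the stimulatory G protein subunit, did not pass at 0.16 ± 0.09 (adjusted p = 0.164) and turned to −0.98 with the offset.

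Clock and glucocorticoid-response genes included 15 of 23 higher and 1 lower (median 1.13; 12 and 4 with the offset). Per1, a clock repressor that glucocorticoid and cyclic AMP also induce, had 348, 326, 395 and 431 CPM in WT lung, against 17.02, 13.8, 10.4 and 21.5 CPM in WT naive spleen (log2 change 4.58 ± 0.19, adjusted p = 1.49e-15). Bhlhe40, a clock-linked repressor that supports cytokine output in lymphocytes, had 1182, 1496, 1479 and 1488 CPM in WT lung, against 214, 215, 177 and 214 CPM in WT naive spleen (log2 change 2.78 ± 0.11, adjusted p = 9.23e-16). Their lung libraries all lay well above the highest spleen library. Sgk1, a serum- and glucocorticoid-induced kinase, had 278 ± 40.6 CPM in WT lung and 74.6 ± 19.05 CPM in WT naive spleen (SD, n = 4 each; 1.9 ± 0.14). Tsc22d3, which encodes GILZ, had 504 ± 74.4 CPM in WT lung and 198 ± 65.6 CPM in WT naive spleen (SD, n = 4 each; 1.35 ± 0.19). Ddit4, an inhibitor of mTORC1 that glucocorticoid induces, fell instead, with 54.3, 59.3, 49.4 and 55.2 CPM in WT lung, against 80.9, 118, 154 and 135 CPM in WT naive spleen (log2 change −1.16 ± 0.14, adjusted p = 3.73e-07).

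Most chemokine genes tested were higher in WT lung, and so was Ifng. Of 14 chemokine genes, 11 were higher and none lower, with a median log2 change of 2.04 (the same with genes absent from spleen set at their bound), and 12 and 0 with the offset. Without WT lung replicate 1, 9 of 15 tested were higher and 0 lower, with a median of 1.52. Monocyte and macrophage markers were higher in lung as well, their sum being 67.0 to 143 CPM in WT lung and 9.78 to 16.9 CPM in WT naive spleen, and their part in the chemokine count was not tested. Ifng, the main cytokine of NK cells, had 802, 489, 444 and 422 CPM in WT lung, against 86.4, 71.3, 58.3 and 65.5 CPM in WT naive spleen (log2 change 2.94 ± 0.19, adjusted p = 5.81e-12). Ccl3, an inflammatory chemokine, had 776, 581, 492 and 556 CPM in WT lung, against 85, 51.7, 61.5 and 73.5 CPM in WT naive spleen (log2 change 3.14 ± 0.19, adjusted p = 1.54e-12). Ccl4, a close relative of Ccl3, had 1283, 682, 697 and 641 CPM in WT lung, against 116, 83.9, 94.5 and 107 CPM in WT naive spleen (log2 change 3.04 ± 0.23, adjusted p = 8.10e-11). Lung replicate 1 was the highest of its group for Ifng, Ccl3 and Ccl4, and the other 3 lung libraries also lay well above every spleen library. Xcl1, which attracts cross-presenting dendritic cells, had 664, 329, 276 and 256 CPM in WT lung, against 236, 185, 152 and 183 CPM in WT naive spleen (log2 change 1.01 ± 0.22, adjusted p = 4.62e-04). Ccl5, stored as message in resting NK cells, did not pass (4448 ± 1064 CPM in WT lung and 3982 ± 631 CPM in WT naive spleen, SD, n = 4 each; log2 change 0.16 ± 0.17, adjusted p = 0.473). Cxcl2, a neutrophil attractant, had 5.29, 4.34, 1.51 and 4.46 CPM in WT lung and no read in WT naive spleen, a group mean at least 137-fold higher against a floor of 3 counts over the spleen group.

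Of 27 cytokine and cytokine receptor genes, Ifng among them, 10 were higher and 3 lower, and 8 and 6 with the offset. Tnf was low in all libraries, with 9.64, 5.98, 3.29 and 5.08 CPM in WT lung, against 2.603, 0.712, 0.306 and 2.51 CPM in WT naive spleen (log2 change 1.92 ± 0.43, adjusted p = 6.59e-04). Spp1, which encodes osteopontin, had 20.8, 11.4, 9.19 and 10.6 CPM in WT lung, against 3.302, 4.57, 5.02 and 4.35 CPM in WT naive spleen (log2 change 1.55 ± 0.25, adjusted p = 1.12e-05). Vegfa, the vascular growth factor listed with the hypoxia genes, had 183, 237, 254 and 223 CPM in WT lung, against 12.7, 7.98, 5.15 and 5.31 CPM in WT naive spleen (log2 change 4.85 ± 0.26, adjusted p = 1.49e-13). No library overlapped for Vegfa or Spp1. Osm, a cytokine of the IL-6 family induced by STAT5, had 60.1 ± 6.16 CPM in WT lung and 22 ± 4.48 CPM in WT naive spleen (SD, n = 4 each; 1.45 ± 0.13). Socs3, the feedback inhibitor of gp130 receptors, had 269, 264, 255 and 235 CPM in WT lung, against 50.3, 25.98, 23.8 and 39.9 CPM in WT naive spleen (log2 change 2.87 ± 0.18, adjusted p = 3.48e-12). Il2rb, the shared receptor chain for IL-2 and IL-15, did not pass (2472 ± 471 CPM in WT lung and 2988 ± 199.7 CPM in WT naive spleen, SD, n = 4 each; log2 change −0.27 ± 0.12, adjusted p = 0.0723). Pim1, a STAT5-induced kinase, rose by 1.13 ± 0.12. Over the 21 STAT5 and SOCS genes, 8 were higher and 3 lower, but 5 and 9 with the offset.

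Of 13 chemokine receptor genes, 5 were higher and 4 lower. Cxcr3, the receptor for CXCL9 and CXCL10, had 45.96, 36.8, 27.7 and 23.96 CPM in WT lung, against 191, 202, 142 and 145 CPM in WT naive spleen (log2 change −2.35 ± 0.18, adjusted p = 1.33e-10). Ccr2, the receptor for CCL2, had 409, 448, 446 and 375 CPM in WT lung, against 1370.2, 1239, 1168 and 1156 CPM in WT naive spleen (log2 change −1.56 ± 0.16, adjusted p = 1.56e-08). All 4 lung libraries lay below all 4 spleen libraries for both receptors. Cxcr4, the receptor for CXCL12 that retains cells in bone marrow and niches, had 555, 602, 363 and 414 CPM in WT lung, against 65.5, 139, 107 and 157 CPM in WT naive spleen and rose (log2 change 2.04 ± 0.21, adjusted p = 2.15e-08). Ccr7, which guides cells into lymph, had 30.1, 20.1, 10.02 and 15.3 CPM in WT lung, against 4.196, 2.999, 3.19 and 1.38 CPM in WT naive spleen (log2 change 2.67 ± 0.45, adjusted p = 2.43e-05).

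S1pr1, the lymphocyte egress receptor, had 83.3, 117, 81.2 and 93.6 CPM in WT lung, against 188, 211, 167 and 170.5 CPM in WT naive spleen (log2 change −0.97 ± 0.19, adjusted p = 1.72e-04). S1pr5, the egress receptor of mature NK cells, had 224, 308, 221 and 301 CPM in WT lung, against 470.0, 408, 428 and 479 CPM in WT naive spleen (log2 change −0.76 ± 0.14, adjusted p = 5.88e-05). Both were lower in every lung library than in any spleen library. Klf2, the factor that drives S1pr1 in T cells, had 1839.6, 1280.4, 1144 and 1338 CPM in WT lung, against 703, 706, 594 and 592 CPM in WT naive spleen and rose (log2 change 1.11 ± 0.16, adjusted p = 3.72e-06), so the Klf2 and S1pr1 transcripts moved in opposite directions. Over all 20 egress and recirculation genes 7 were higher and 4 lower, but 7 and 10 with the offset. Cd69, which binds S1PR1 protein and removes it from the surface, had 158, 107, 116 and 92.6 CPM in WT lung, against 37.2, 36.8, 29.8 and 33.4 CPM in WT naive spleen (log2 change 1.79 ± 0.17, adjusted p = 3.65e-09).

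Markers of tissue-resident cells and ILC1 did not move as a group: 10 of 27 were higher and 8 lower, and 7 and 8 with the offset. Rgs1, Rgs2 and Cd69 were among the higher ones. Itga1, the CD49a integrin of resident cells, stayed low, with 4.82, 9.27, 6.77 and 7.85 CPM in WT lung, against 1.94, 1.72, 1.27 and 4.05 CPM in WT naive spleen (log2 change 1.68 ± 0.30, adjusted p = 4.58e-05). Itgae, which encodes CD103, had 0.353, 1.895, 1.03 and 0.846 CPM in WT lung, against 1.98, 1.87, 2.14 and 0.231 CPM in WT naive spleen (log2 change −0.56 ± 0.75, adjusted p = 0.568). Zfp683, which encodes Hobit, was at or under 1.01 CPM in every library (log2 change 0.52 ± 0.81, adjusted p = 0.625). Cd160 fell (57.3 ± 22.2 CPM in WT lung and 133 ± 12.6 CPM in WT naive spleen, SD, n = 4 each; −1.23 ± 0.18), and so did Il7r (22.1, 30.6, 22.7 and 23.4 CPM in WT lung, against 53.03, 46.3, 46.4 and 48.7 CPM in WT naive spleen; log2 change −0.97 ± 0.23, adjusted p = 8.57e-04). Itga1, Itgae and Zfp683 were thus under 10 CPM in every library of both groups.

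Genes of mature NK cells were more often higher in WT lung and genes of immature NK cells more often lower. Of 20 mature NK genes 10 were higher and 3 lower (12 and 4 with the offset), and of 18 immature NK genes 3 were higher and 10 lower (the same with the offset). Irf8, a factor of the NK cell memory and proliferation response, had 1983, 2455, 2441 and 2773 CPM in WT lung, against 486, 508, 469.7 and 541 CPM in WT naive spleen (log2 change 2.27 ± 0.12, adjusted p = 2.54e-13). Zeb2, which completes NK maturation with T-bet, had 119, 176, 178 and 185 CPM in WT lung, against 78.1, 60.4, 66.7 and 78.8 CPM in WT naive spleen (log2 change 1.22 ± 0.18, adjusted p = 4.60e-06). Ly6c2, a Ly6C gene of mature cells, rose by 1.29 ± 0.18, Prdm1, which encodes Blimp-1, by 1.02 ± 0.17, and Klrg1 by 0.51 ± 0.14. The lung libraries were above the spleen libraries for Irf8, Zeb2, Ly6c2 and Prdm1.

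Among immature genes, Kit, the stem cell factor receptor, had 40.6, 42.6, 33.4 and 42.3 CPM in WT lung, against 121, 103, 75.8 and 95.6 CPM in WT naive spleen (log2 change −1.32 ± 0.18, adjusted p = 1.02e-06). Ltb, lymphotoxin β, had 100.4, 51.8, 37.4 and 39.3 CPM in WT lung, against 225, 218, 156 and 145 CPM in WT naive spleen (log2 change −1.71 ± 0.24, adjusted p = 2.04e-06). Cd7 had 261 ± 85.9 CPM in WT lung and 595 ± 52.8 CPM in WT naive spleen (SD, n = 4 each; −1.19 ± 0.16). The groups did not overlap for Kit, Ltb or Cd7. The S1pr5 and Cxcr3 values above belong to the mature and immature lists too, and both fell.

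**Figure D2:**
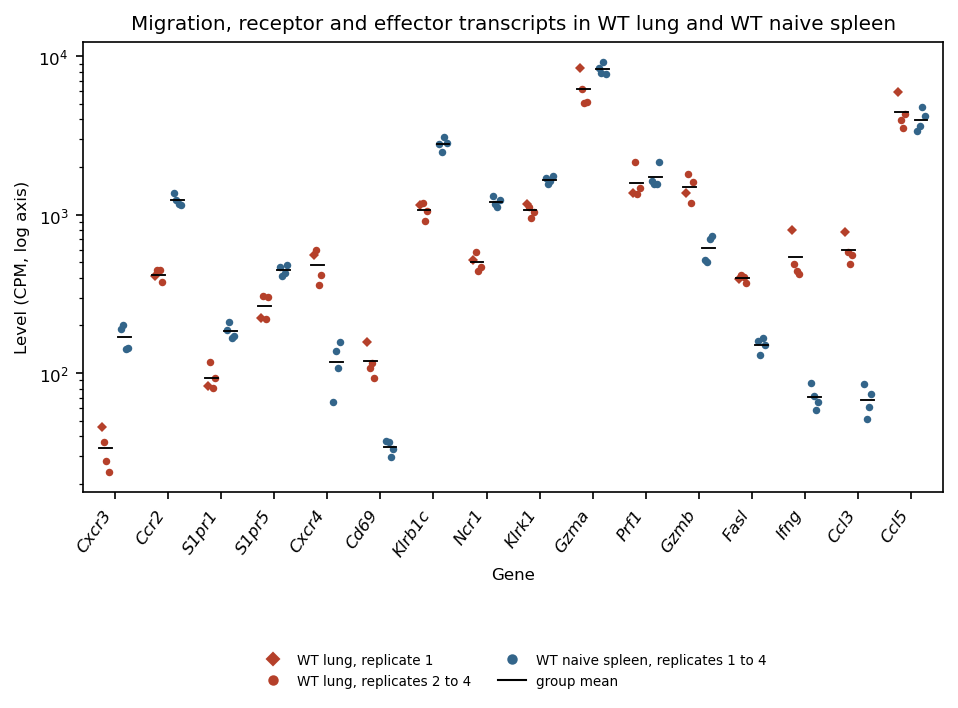
Level of 16 migration, receptor and effector genes in each library (CPM, log axis), with WT lung in red (replicate 1 as a diamond), WT naive spleen in blue and group means as black bars. Cxcr3, Ccr2, S1pr1, S1pr5, Klrb1c, Ncr1 and Klrk1 are lower in every lung library, Cxcr4, Cd69, Gzmb, Fasl, Ifng and Ccl3 are higher in every one, and Gzma, Prf1 and Ccl5 overlap.

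Killing machinery changed gene by gene. Of 28 granule and cytotoxic genes 7 were higher and 8 lower (9 and 9 with the offset), beside 29.2% higher and 20% lower of all genes tested. Gzmb, the granzyme that starts apoptosis in targets and that cytokine-primed NK cells translate, had 1372, 1816, 1192 and 1598 CPM in WT lung, against 519.9, 503, 704 and 735 CPM in WT naive spleen (log2 change 1.28 ± 0.17, adjusted p = 7.41e-07). Gzma, a tryptase of resting NK cells, had 8431, 6182, 5058 and 5127 CPM in WT lung, against 8476, 7854, 9203 and 7735 CPM in WT naive spleen (log2 change −0.42 ± 0.17, adjusted p = 0.0425). It turned to 0.20 with the offset, and leaving out single libraries took its adjusted p up to 0.137. Prf1, perforin, did not pass (1381, 2139, 1348 and 1477 CPM in WT lung, against 1624, 1565, 1569.9 and 2151 CPM in WT naive spleen; log2 change −0.12 ± 0.14, adjusted p = 0.483). Gzmb thus rose while the libraries overlapped for Gzma and Prf1. Gzmk, a granzyme of less mature lymphocytes, had 2.59, 1.68, 1.704 and 2.31 CPM in WT lung, against 5.98, 10.7, 19.1 and 15.9 CPM in WT naive spleen (log2 change −2.66 ± 0.34, adjusted p = 4.26e-07). Of the death ligands, Fasl had 393, 414, 406 and 370.4 CPM in WT lung, against 159.6, 129.8, 166 and 151 CPM in WT naive spleen (log2 change 1.39 ± 0.10, adjusted p = 7.71e-11). Tnfsf10, which encodes TRAIL, had 13.3, 14.2, 9.63 and 10.3 CPM in WT lung, against 30.9, 28.9, 31.9 and 37.6 CPM in WT naive spleen (log2 change −1.45 ± 0.17, adjusted p = 1.13e-07). Fas ligand and TRAIL transcripts thus moved in opposite directions, each without overlap. Lamp2, a lysosomal membrane protein gene, had 49.4 ± 6.47 CPM in WT lung and 108 ± 8.81 CPM in WT naive spleen (SD, n = 4 each; −1.13 ± 0.13).

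Of 17 lectin receptors of the NK complex 5 were higher and 11 lower, and 6 and 8 with the offset. Klrb1c, which encodes NK1.1, had 1148, 1181, 914 and 1059 CPM in WT lung, against 2796, 2471, 3089.9 and 2845 CPM in WT naive spleen (log2 change −1.38 ± 0.11, adjusted p = 3.01e-10). Klrk1, which encodes NKG2D, had 1172, 1124, 958 and 1046 CPM in WT lung, against 1714, 1568, 1631 and 1748 CPM in WT naive spleen (log2 change −0.63 ± 0.13, adjusted p = 3.61e-04). Ncr1, which encodes the activating receptor NKp46, had 521, 579, 444 and 467 CPM in WT lung, against 1314, 1176, 1122 and 1233 CPM in WT naive spleen (log2 change −1.27 ± 0.11, adjusted p = 1.42e-09). The 3 activating receptors were lower in every lung library, with Klrk1 changing least. Klrd1, the CD94 chain that pairs with NKG2 receptors, was at −0.82 ± 0.12 (adjusted p = 2.01e-06), but stood at 0.02 with the offset (adjusted p = 0.909). Klri2 had 563 ± 38.8 CPM in WT lung and 1284 ± 167 CPM in WT naive spleen (SD, n = 4 each; −1.19 ± 0.14). Clec2d, whose product is the ligand of an inhibitory NKR-P1 receptor, had 210.2, 115, 105 and 122 CPM in WT lung, against 22.5, 14.8, 14.8 and 15.9 CPM in WT naive spleen and rose (log2 change 3.02 ± 0.21, adjusted p = 2.21e-11).

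Ly49 receptors, which bind MHC class I and share much of their sequence, gave 2 higher and 8 lower of 13, but 5 higher and 1 lower with the offset. Their separate values are uncertain because the authors' counting could split reads among near-identical members. Klra1 (Ly49A) had 76.05, 73.2, 48.3 and 62.7 CPM in WT lung, against 186, 169, 179 and 146 CPM in WT naive spleen (log2 change −1.39 ± 0.16, adjusted p = 1.08e-07). Klra4 (Ly49D) stood at −0.84 ± 0.17 and Klra8 (Ly49H) at −0.37 ± 0.15, with −0.07 and 0.40 after the offset. Klra13-ps, a transcribed Ly49 pseudogene, had 146, 177, 298 and 287 CPM in WT lung, against 35.6, 29.7, 35.3 and 26.6 CPM in WT naive spleen (log2 change 2.84 ± 0.27, adjusted p = 4.96e-09). Klra10 rose by 4.37 ± 0.45 at a low level.

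Of 31 ITAM adaptor and signalling genes 8 were higher and 13 lower (5 and 12 with the offset). Fcer1g, which encodes the FcRγ adaptor of CD16 and NKp46, did not pass (754, 585, 484 and 555 CPM in WT lung, against 795, 719, 782 and 622 CPM in WT naive spleen; log2 change −0.30 ± 0.23, adjusted p = 0.306). Tyrobp, which encodes the DAP12 adaptor, had 1088, 633, 494 and 576 CPM in WT lung, against 1001, 958, 945 and 853 CPM in WT naive spleen (log2 change −0.43 ± 0.18, adjusted p = 0.046), with lung replicate 1 above all spleen libraries and an adjusted p of up to 0.182 when single libraries were left out. Slamf6, a SLAM family receptor, had 7.29, 6.23, 5.82 and 3.54 CPM in WT lung, against 17.6, 17.1, 17.5 and 15.4 CPM in WT naive spleen (log2 change −1.59 ± 0.21, adjusted p = 8.63e-07). Sla, an adaptor that down-regulates receptor signalling, had 230.2 ± 18.7 CPM in WT lung and 437 ± 24.7 CPM in WT naive spleen (SD, n = 4 each; −0.93 ± 0.09). Sh2d1b1, which encodes the SLAM adaptor EAT-2, had 46.5, 40.3, 35.6 and 44.2 CPM in WT lung, against 70.2, 69.2, 83.9 and 88.3 CPM in WT naive spleen (log2 change −0.91 ± 0.11, adjusted p = 1.65e-07). The receptors and adaptors of the SLAM group named here were lower without overlap. Plcg1, a phospholipase more used by T cells than by NK cells, had 10.9, 10.3, 11.1 and 10.96 CPM in WT lung, against 2.45, 2.29, 1.09 and 1.02 CPM in WT naive spleen (log2 change 2.66 ± 0.37, adjusted p = 2.02e-06).

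Among 19 checkpoint genes 8 were higher and 5 lower, and 7 and 7 with the offset, while upper-quartile scaling gave 7 and 8. Tigit, an inhibitory receptor for the poliovirus receptor, had 36.2, 43.7, 37.6 and 35.3 CPM in WT lung, against 16.5, 20.3, 30.8 and 31.6 CPM in WT naive spleen (log2 change 0.62 ± 0.19, adjusted p = 0.00816). Cd226, the activating receptor for the same ligands, had 19.98, 32.7, 25.6 and 20.4 CPM in WT lung, against 44.4, 63.1, 71.96 and 68.2 CPM in WT naive spleen (log2 change −1.32 ± 0.19, adjusted p = 2.16e-06). The lung libraries lay above the spleen libraries for Tigit and below them for Cd226. Ctla4 had 4.35, 4.296, 1.86 and 1.42 CPM in WT lung and no read in WT naive spleen, at least 105-fold higher against the floor of 3 counts over the group. Tox, a factor of NK development and of T cell exhaustion, fell (26.5 ± 4.47 CPM in WT lung and 58.5 ± 4.26 CPM in WT naive spleen, SD, n = 4 each; −1.14 ± 0.18).

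Of 38 NK cell transcription factors 17 were higher and 5 lower, but 14 and 12 with the offset. Eomes, which defines conventional NK cells, had 746, 779, 808 and 878 CPM in WT lung, against 734, 592, 543 and 627 CPM in WT naive spleen (log2 change 0.36 ± 0.11, adjusted p = 0.0105), and the offset took it to 0.07. Tbx21, which encodes T-bet, had 470.2, 515, 469.7 and 544 CPM in WT lung, against 554, 699, 663 and 687 CPM in WT naive spleen (log2 change −0.38 ± 0.12, adjusted p = 0.012). Eomes lay higher and Tbx21 lower in all lung libraries, by small amounts. Nfil3, the factor needed for NK cell development, had 249, 220.4, 215 and 219.6 CPM in WT lung, against 66.9, 63.1, 59.4 and 72.1 CPM in WT naive spleen (log2 change 1.79 ± 0.10, adjusted p = 4.44e-13). Rora had 35.03, 36.5, 36.1 and 37.8 CPM in WT lung, against 10.5, 11.9, 8.21 and 13.2 CPM in WT naive spleen (log2 change 1.73 ± 0.16, adjusted p = 3.35e-09). Runx3 rose by 1.08 ± 0.11. Ets1 did not pass (946 ± 115 CPM in WT lung and 846 ± 105 CPM in WT naive spleen, SD, n = 4 each; log2 change 0.16 ± 0.12, adjusted p = 0.272).

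Of 20 TGF-β pathway genes 9 were higher and 3 lower (7 and 3 with the offset). Smad7, the inhibitory SMAD induced by TGF-β, had 171, 195, 191 and 175 CPM in WT lung, against 40.02, 40.3, 25.5 and 36.9 CPM in WT naive spleen (log2 change 2.36 ± 0.16, adjusted p = 9.13e-12). Pmepa1, another feedback inhibitor, had 35.03, 16.6, 12.9 and 15.5 CPM in WT lung, against 2.06, 0.937, 1.31 and 2.01 CPM in WT naive spleen (log2 change 3.63 ± 0.29, adjusted p = 2.01e-10). Tgif1, a corepressor of SMAD2 and SMAD3, had 121, 126, 121 and 127 CPM in WT lung, against 11.6, 16.6, 13.9 and 14.4 CPM in WT naive spleen (log2 change 3.13 ± 0.14, adjusted p = 6.29e-15). Smad7, Pmepa1 and Tgif1 separated the groups without overlap, with lung replicate 1 highest for Pmepa1. Tgfbr2, the type II receptor, fell (log2 change −0.34 ± 0.13, adjusted p = 0.0333), a call that leaving out single libraries ended (adjusted p up to 0.123). Of the 12 KLF factors 7 were higher and none lower (6 and 2 with the offset). Klf11, a TGF-β-inducible member, had 51.4, 52.9, 67.4 and 47.8 CPM in WT lung, against 6.84, 4.76, 8.65 and 5.57 CPM in WT naive spleen (log2 change 3.09 ± 0.30, adjusted p = 5.31e-09).

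Interferon-response genes were more often lower in WT lung. Of 41 type I interferon-stimulated genes 6 were higher and 18 lower (7 and 17 with the offset), and of 20 interferon-induced GTPase genes and relatives 3 were higher and 10 lower (5 and 8). Ifi47, an IFN-γ-induced GTPase, had 142, 124, 120.5 and 123 CPM in WT lung, against 392, 496, 464 and 413 CPM in WT naive spleen (log2 change −1.79 ± 0.11, adjusted p = 1.27e-12). Irgm2, a regulator of that family, had 12.2, 17.4, 22.7 and 15 CPM in WT lung, against 49.4, 69.9, 58.9 and 63.3 CPM in WT naive spleen (log2 change −1.83 ± 0.17, adjusted p = 2.99e-09). Every lung library was below every spleen library for both, while Ifng itself was higher in lung. Oas3, an antiviral oligoadenylate synthetase, had 5.88, 9.31, 4.52 and 6.23 CPM in WT lung, against 30.6, 23.7, 20.5 and 31.5 CPM in WT naive spleen (log2 change −2.03 ± 0.23, adjusted p = 9.26e-08). Rtp4, an interferon-induced gene, changed by −1.93 ± 0.21. Irf7, the inducible interferon factor, rose instead (149, 143, 127 and 145 CPM in WT lung, against 65.2, 50.2, 47.1 and 51.1 CPM in WT naive spleen; log2 change 1.4 ± 0.12, adjusted p = 8.81e-10), and so did Gbp8 (1.02 ± 0.15) and Gbp4 (0.78 ± 0.16).

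In MHC class I presentation 3 of 16 genes were higher and 6 lower, and 3 and 11 with the offset. H2-Q4 and H2-Q6, nonclassical class I genes close in sequence to others and so uncertain one by one, stood at 751 ± 81.4 CPM in WT lung and 176 ± 25.1 CPM in WT naive spleen and at 1669 ± 196 CPM in WT lung and 526 ± 129 CPM in WT naive spleen (SD, n = 4 each; log2 changes 2.1 ± 0.15 and 1.67 ± 0.15). Nlrc5, the class I transactivator, had 72.3, 136, 163 and 144 CPM in WT lung, against 29.1, 23.2, 12.7 and 27.7 CPM in WT naive spleen (log2 change 2.48 ± 0.23, adjusted p = 4.17e-09). H2-K1 did not pass (log2 change −0.23 ± 0.11, adjusted p = 0.0813). B2m, the shared light chain, was at −0.48 ± 0.19 and turned to 0.31 with the offset. Of 8 GIMAP GTPases, survival proteins of lymphocytes, none was higher and 3 lower (3 and 3 with the offset). Gimap4 had 698, 828, 794 and 772 CPM in WT lung, against 1421, 1659, 1500.3 and 1444 CPM in WT naive spleen (log2 change −0.96 ± 0.10, adjusted p = 2.38e-08).

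**Figure D3:**
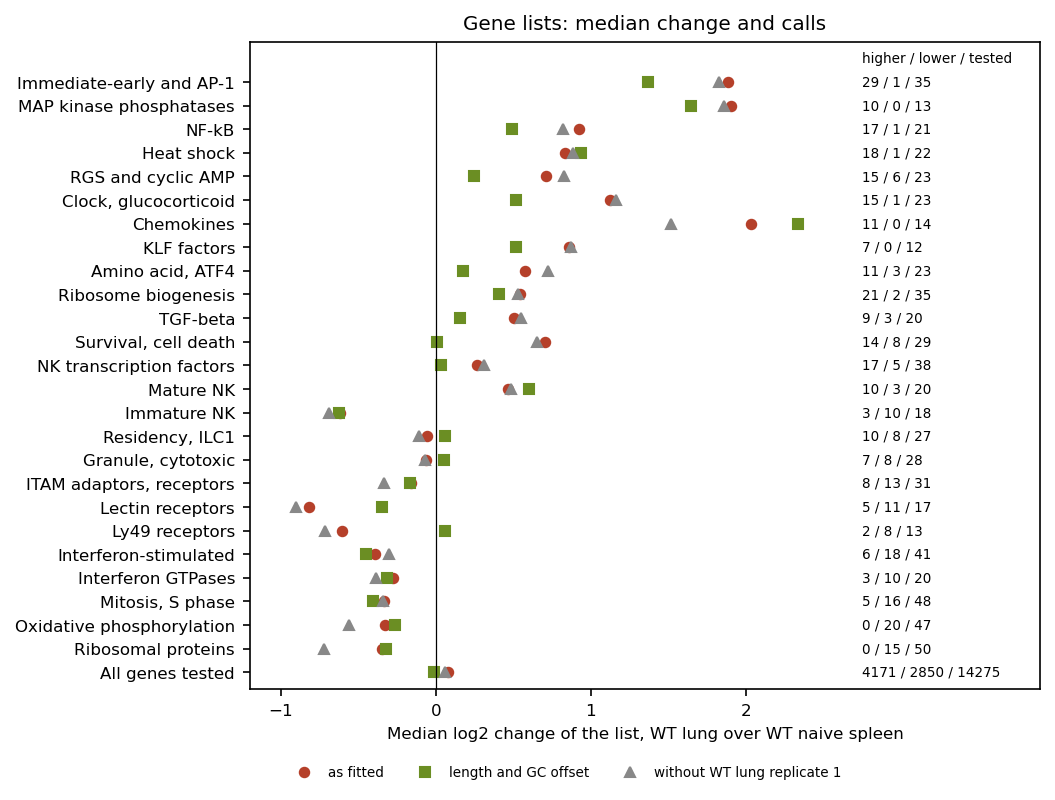
Median log2 change of 25 gene lists and of all genes tested, WT lung over WT naive spleen, as fitted (circles), with the length and GC offset (squares) and without WT lung replicate 1 (triangles); numbers give genes higher, lower and tested as fitted. Immediate-early genes and MAP kinase phosphatases stand near 1.9 as fitted, Ly49 receptors move from −0.61 to 0.06 with the offset, and ribosomal proteins from −0.35 to −0.72 without replicate 1.

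How many transcripts of the translation and respiration machinery fell in WT lung depended on 1 library. Of 50 cytosolic ribosomal protein genes none was higher and 15 were lower (median −0.35), but without WT lung replicate 1 the count was 47 lower (median −0.72). Rps14 had 3299.6, 1423, 1403 and 1364 CPM in WT lung, against 3074, 3309, 3609 and 2742 CPM in WT naive spleen (log2 change −0.77 ± 0.24, adjusted p = 0.00905), and lung replicate 1 lay within the spleen range while the other 3 lung libraries were at about the same lower level. Of 47 nuclear genes of oxidative phosphorylation none was higher and 20 were lower, and 36 were lower without that library. Sdha, the catalytic subunit of complex II, had 172, 191, 200.2 and 179.6 CPM in WT lung, against 299, 287, 260.3 and 273 CPM in WT naive spleen (log2 change −0.59 ± 0.09, adjusted p = 5.11e-06). Atp5c1, the γ subunit of ATP synthase, had 129 ± 19.2 CPM in WT lung and 220.4 ± 20.5 CPM in WT naive spleen (SD, n = 4 each; −0.77 ± 0.12). None of 15 mitochondrially encoded genes passed in either direction with edgeR, and 4 were higher with the offset; counts on mitochondrial genes made up 3.17 to 6.14% of WT lung and 4.89 to 6.31% of WT naive spleen libraries.

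Ribosome biogenesis genes went the other way from the ribosomal proteins. Of 35 such genes 21 were higher and 2 lower (20 and 2 with the offset). Myc, the factor that drives this programme, had 119, 91.5, 97.98 and 95.03 CPM in WT lung, against 55.3, 46.7, 35.4 and 47.96 CPM in WT naive spleen (log2 change 1.12 ± 0.12, adjusted p = 2.93e-08). Odc1, the polyamine synthesis enzyme, had 382, 300.2, 379 and 322 CPM in WT lung, against 107, 78.05, 79.9 and 81.5 CPM in WT naive spleen (log2 change 2.00 ± 0.13, adjusted p = 3.83e-12). Nolc1, a nucleolar phosphoprotein gene, had 83.2, 67.6, 83.6 and 79.4 CPM in WT lung, against 26.1, 20.8, 12.4 and 16.7 CPM in WT naive spleen (log2 change 2.04 ± 0.14, adjusted p = 2.69e-11). No lung library overlapped with spleen for these 3 genes. Nop56, a small nucleolar RNP core protein gene, rose by 1.47 ± 0.14, and Npm1 was at −0.38 ± 0.13 and turned to 0.12 with the offset.

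Of 23 amino acid transport and ATF4 genes 11 were higher and 3 lower (10 and 5 with the offset). Atf4, the factor of the integrated stress response, had 574, 515, 559 and 536 CPM in WT lung, against 128, 104, 97.6 and 104 CPM in WT naive spleen (log2 change 2.33 ± 0.12, adjusted p = 3.84e-14). Ddit3, its target CHOP, had 132, 73.6, 61.4 and 81.3 CPM in WT lung, against 20.1, 15.9, 12.4 and 12.99 CPM in WT naive spleen (log2 change 2.5 ± 0.22, adjusted p = 9.74e-10). Both were higher in all lung libraries. Slc3a2, which encodes the CD98 heavy chain of amino acid transporters, rose by 1.31 ± 0.10, and Tfrc, the transferrin receptor, had 33.7, 37.1, 53.6 and 35 CPM in WT lung, against 7.69, 8.85, 2.66 and 7.42 CPM in WT naive spleen (log2 change 2.58 ± 0.26, adjusted p = 1.02e-08).

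Glycolysis and hypoxia genes were split, with 6 of 31 higher and 7 lower, and 5 and 16 with the offset. As fitted, 29.2% of all genes tested were higher and 20% lower. Ldha did not pass (459 ± 88.6 CPM in WT lung and 509.6 ± 23.04 CPM in WT naive spleen, SD, n = 4 each; log2 change −0.15 ± 0.12, adjusted p = 0.322), nor did Eno1 (0.01 ± 0.10), which stood at −0.71 with the offset. Hk2, the inducible hexokinase, had 9.17, 5.05, 9.79 and 4.62 CPM in WT lung, against 1.94, 2.96, 2.79 and 2.44 CPM in WT naive spleen (log2 change 1.48 ± 0.31, adjusted p = 2.85e-04). In sterol and fatty acid synthesis 12 of 30 were higher and 7 lower, which turned to 6 and 15 with the offset and to 6 and 9 with upper-quartile scaling. Of 23 oxidative stress genes 9 were higher and 4 lower (8 and 6 with the offset), but without WT lung replicate 1 the counts were 9 and 8, and with upper-quartile scaling 8 and 9. Mt1, a metallothionein, had 5.17, 4.001, 2.54 and 2.54 CPM in WT lung and 0.194, 0.412, 0 and 0.0989 CPM in WT naive spleen.

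Mitotic and S phase genes were more often lower, with 5 of 48 higher and 16 lower (6 and 21 with the offset). Rrm1, the large subunit of ribonucleotide reductase, had 51.8, 58.8, 63.5 and 52.2 CPM in WT lung, against 96.7, 92.1, 96.4 and 92.9 CPM in WT naive spleen (log2 change −0.74 ± 0.09, adjusted p = 4.96e-07). Mki67, the proliferation antigen, went the other way (21.4, 22.3, 50.9 and 30.96 CPM in WT lung, against 4.58, 0.262, 1.92 and 2.01 CPM in WT naive spleen; log2 change 3.85 ± 0.45, adjusted p = 1.30e-07). No library overlapped for Rrm1 or Mki67. Among 29 survival and cell death genes 14 were higher and 8 lower (9 and 8 with the offset). The growth arrest gene Gadd45b had 101, 68.8, 63.6 and 68.4 CPM in WT lung, against 4.31, 6.22, 5.11 and 5.08 CPM in WT naive spleen (log2 change 3.86 ± 0.21, adjusted p = 1.93e-13). Cdkn1a, the p21 inhibitor of cyclin-dependent kinases, had 70.5, 61.4, 55.03 and 62.8 CPM in WT lung, against 5.24, 11.2, 10.6 and 9.06 CPM in WT naive spleen (log2 change 2.79 ± 0.29, adjusted p = 1.88e-08). Bcl2 (228 ± 8.83 CPM in WT lung and 195 ± 8.19 CPM in WT naive spleen; log2 change 0.23 ± 0.12, adjusted p = 0.11) and Mcl1 (576 ± 21.8 CPM in WT lung and 613 ± 63.9 CPM in WT naive spleen; log2 change −0.09 ± 0.08, adjusted p = 0.396), the survival factors of NK cells, did not pass (SD, n = 4 each).

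The remaining gene lists gave mixed counts, to be read beside the 29.2% of all genes tested that were higher and the 20% that were lower. Of 19 TNF superfamily genes 5 were higher and 7 lower (6 and 8 with the offset), of 30 integrin and adhesion genes 4 were higher and 9 lower (5 and 12), and of 21 unfolded protein response genes 6 were higher and 3 lower (5 and 2).

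The NK label was checked against markers, summed as CPM over each list. The 12 NK cell markers summed to 15320 to 19600 CPM in WT lung and 23550 to 25460 CPM in WT naive spleen, and all 12 were over 1 CPM in both groups. The 12 T cell markers summed to 216 to 322 CPM in lung and 165 to 201 CPM in spleen. Transcripts of other lung cells were present at low level and moved with tissue. The 12 endothelial markers summed to 132 to 246 CPM in lung and 96.2 to 115 CPM in spleen, the 12 monocyte and macrophage markers to 67.0 to 143 and 9.78 to 16.9 CPM, and the 12 alveolar macrophage markers to 34.4 to 76.5 and 0.0375 to 0.568 CPM. The 12 airway markers summed to 14.7 to 71.0 CPM in lung and 0.218 to 1.57 CPM in spleen, and the 12 fibroblast markers to 15.8 to 43.1 and 1.32 to 3.41 CPM, with Lum at 0 in lung. Neutrophil markers (12) summed to 5.27 to 29.6 CPM in lung and 1.35 to 5.24 CPM in spleen. B cell markers (11 matched) were the reverse, at 112 to 140 CPM in lung and 179 to 217 CPM in spleen, as were mast cell and basophil markers (12, with Kit among them), at 37.4 to 50.8 and 79.1 to 126 CPM. The sums of the 8 plasma cell markers (231 to 297 CPM in lung, 189 to 205 CPM in spleen) and the 8 red pulp macrophage markers (17.9 to 37.0 and 4.57 to 11.1 CPM) were higher in every lung library. So were melanocytic markers, given below with Dct. The plasma cell list holds Prdm1, named above among mature NK genes, and its Tnfrsf17 was at 0 in both groups. Of the red pulp markers, Spic was at 0 in WT lung but had reads in WT naive spleen. The ranges of the remaining lists overlapped. The part of these cells in the results above was not tested. A further fit left out the marker genes of other cells that were matched by symbol and on none of the gene lists. It gave 4105 higher and 2824 lower genes. Other transcripts of those cells stayed in, so these counts do not measure their part.

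Markers of those other cells were among the genes with the largest fitted changes. Cldn5, a tight junction protein of endothelium, had 40.8, 25.6, 8.16 and 19.2 CPM in WT lung and no read in WT naive spleen, at least 825-fold higher against the floor. Sftpc, the surfactant protein of alveolar type II cells, had 2.35, 4.97, 4.64 and 19.2 CPM in lung and no read in spleen (at least 275-fold higher, or at least 140-fold without lung replicate 4). Scgb1a1, the secretoglobin of club cells, had 58.1, 6.402, 46.4 and 14.2 CPM in WT lung, against 0, 0.07497, 0 and 0 CPM in WT naive spleen. Lung libraries differed from each other by several-fold for Sftpc and Scgb1a1. Chi3l3, a chitinase-like protein gene of alveolar macrophages, had 29.9, 39.2, 20.6 and 40.2 CPM in WT lung, against 0, 0.0375, 0 and 0 CPM in WT naive spleen, and Lyz2, a lysozyme of myeloid cells, had 115, 105, 46.2 and 112 CPM in WT lung, against 4.16, 2.51, 2.66 and 4.78 CPM in WT naive spleen, with replicate 3 the lowest. Dct, a melanin synthesis enzyme, had 0.4702, 11.2, 7.45 and 0.0385 CPM in lung and no read in spleen, and the 12 melanocytic markers summed to 2.81 to 27.5 CPM in lung and 0 to 1.9 CPM in spleen. Replicates 2 and 3 held most of the Dct signal. At the other end, the platelet genes Ppbp (0.353, 0.168, 0.0792 and 0.308 CPM in WT lung, against 10.5, 4.99, 4.58 and 10.1 CPM in WT naive spleen; log2 change −5.14 ± 0.67, adjusted p = 3.55e-06) and Tubb1 (0, 0, 0.0396 and 0.115 CPM in WT lung, against 3.11, 1.91, 0.611 and 6.16 CPM in WT naive spleen; log2 change −5.86 ± 0.96, adjusted p = 5.04e-05) were lower in lung, although the 8 platelet markers as a sum were at 37.2 to 60.1 CPM in lung and 40.0 to 63.8 CPM in spleen. Lpar5, a lysophosphatidic acid receptor, had 3.996, 2.99, 2.02 and 1.69 CPM in WT lung, against 15.7, 12.9, 17.7 and 19.3 CPM in WT naive spleen and fell (log2 change −2.68 ± 0.23, adjusted p = 7.55e-10). Hvcn1, a proton channel, had 42.8 ± 9.68 CPM in WT lung and 133 ± 5.25 CPM in WT naive spleen (SD, n = 4 each; −1.64 ± 0.14).

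**Figure D4:**
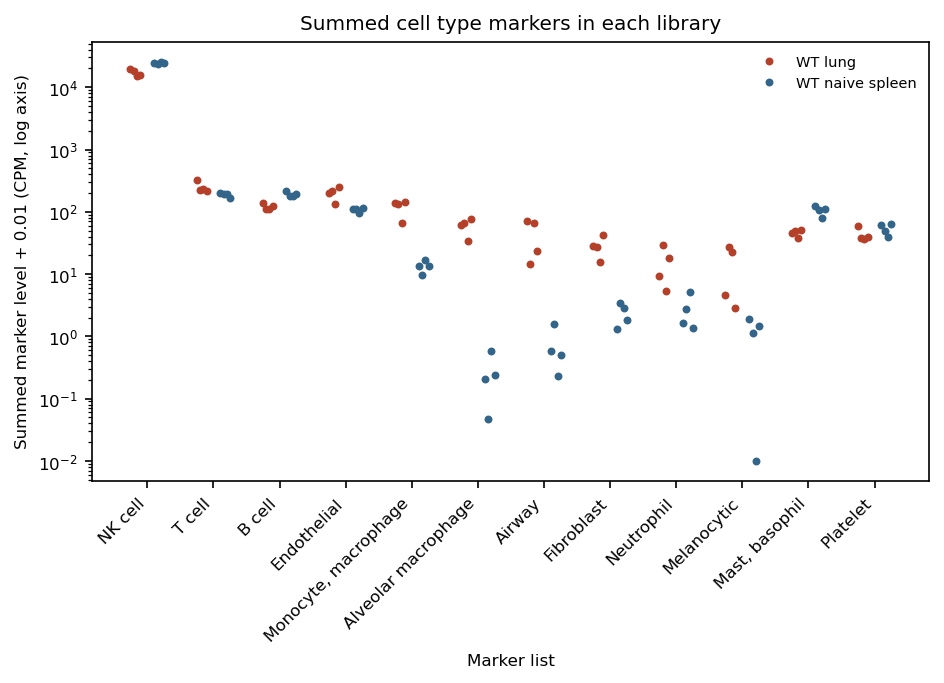
Summed level of 12 marker lists in each library (CPM plus 0.01, log axis), WT lung in red and WT naive spleen in blue. NK cell markers are at 15320 to 19600 CPM in lung and 23550 to 25460 CPM in spleen, while alveolar macrophage markers are at 34.4 to 76.5 CPM in lung and under 0.6 CPM in spleen.

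The difference between lung and naive spleen was also measured in FcRγ KO animals, with no library shared between the genotypes. Fcer1g, the targeted gene, had 595 ± 115 CPM in WT lung and 729.6 ± 78.8 CPM in WT naive spleen, against 14.3 ± 1.61 CPM in KO lung and 3.77 ± 2.37 CPM in KO naive spleen (SD, n = 4 each), so it was far lower in KO than in WT in both tissues. In KO, 3468 genes were higher in lung (24.3%) and 2581 lower (18.1%). Of the genes called higher in WT, 69.2% were called higher in KO, and of those called higher in KO, 83.2% were called higher in WT; for lower genes the shares were 67.4% and 74.4%. The sign was opposite for 5 genes higher in WT and lower in KO and for 9 genes the other way round. In WT, Nr4a1 changed by 5.14 ± 0.19, Tnfaip3 by 4.87 ± 0.19, Hspa1a by 9.67 ± 0.73, Ifng by 2.94 ± 0.19, Cxcr3 by −2.35 ± 0.18 and Klrb1c by −1.38 ± 0.11 on the log2 scale. In KO, Nr4a1 changed by 4.5 ± 0.19, Tnfaip3 by 4.31 ± 0.19, Hspa1a by 9.48 ± 0.76, Ifng by 2.17 ± 0.18, Cxcr3 by −2.08 ± 0.18 and Klrb1c by −1.02 ± 0.11. For none of these 6 genes did edgeR's test of the difference between WT and KO pass.

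Tested as a difference of the WT and KO changes, 140 genes changed more positively in WT (0.981% of genes tested) and 24 more positively in KO (0.168%). Those counts rested on single libraries: without WT lung replicate 1 they were 410 and 160, without WT naive replicate 1 307 and 56, without KO naive replicate 3 217 and 27, and without KO naive replicate 2 105 and 15. Leaving out any one of WT lung replicates 2 to 4, WT naive replicates 2 and 3, the 4 KO lung libraries or KO naive replicate 1 gave 61 to 93 and 9 to 21. KO naive replicate 1 held 9.68 M counts and 1.18% mitochondrial counts, against 23.30 to 27.46 M and 4.19 to 9.28% in the other KO naive libraries. The trend with exon length was weaker in KO. Its median log2 change was 0.293 at 10 kb or more and −0.018 under 1.5 kb, against 0.556 and −0.214 in WT. With the length and GC offset the genotype difference gave 178 genes in the WT direction and 63 in the KO direction. The part of this trend in the difference was not tested. Hnrpdl, an RNA-binding protein gene, had 269 ± 46.02 CPM in WT lung and 43.3 ± 7.25 CPM in WT naive spleen, against 256 ± 10.4 CPM in KO lung and 112 ± 15.1 CPM in KO naive spleen (SD, n = 4 each; difference 1.45 ± 0.17, adjusted p = 1.75e-04). Myh9, the nonmuscle myosin heavy chain, had 1369 ± 334 CPM in WT lung and 93.8 ± 38.4 CPM in WT naive spleen, against 1564 ± 93.6 CPM in KO lung and 577 ± 203 CPM in KO naive spleen (difference 2.43 ± 0.35, adjusted p = 0.00171). With adjusted p in parentheses, Nolc1 differed by 1.07 ± 0.20 (0.00716), Kdm6b by 1.73 ± 0.33 (0.00922), Klf11 by 1.69 ± 0.39 (0.0333), Clec2d by 1.39 ± 0.28 (0.0123), Smad7 by 0.89 ± 0.21 (0.0378) and H2-Q6 by 0.87 ± 0.21 (0.0388), each higher in lung in both genotypes and by more in WT. Leaving out 1 of the 16 libraries ended the call for Klf11 in 9 cases (adjusted p up to 0.0824), for Smad7 in 11 (up to 0.0832) and for H2-Q6 in 11 (up to 0.0923).

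Ccl6, a CC chemokine, rose in KO and did not pass in WT; it had 10.8 ± 3.61 CPM in WT lung and 6.59 ± 1.24 CPM in WT naive spleen, against 25.1 ± 8.26 CPM in KO lung and 0.8397 ± 0.439 CPM in KO naive spleen (SD, n = 4 each; difference −4.2 ± 0.53, adjusted p = 1.96e-04). Monocyte and macrophage markers summed to 67.0 to 143 CPM in WT lung and 9.78 to 16.9 CPM in WT naive spleen, against 162 to 646 CPM in KO lung and 10.9 to 24.2 CPM in KO naive spleen. Alveolar macrophage markers summed to 34.4 to 76.5 CPM in WT lung, against 79.8 to 234.5 CPM in KO lung, and to under 2 CPM in every spleen library. The part of these cells in the Ccl6 difference was not tested. Crem rose in both genotypes and more in KO (difference −0.93 ± 0.19, adjusted p = 0.0127). Gzmk, Oas3 and Sh2d1b1 fell in WT and did not pass in KO. Their differences were −2.14 ± 0.45 (adjusted p = 0.0198) for Gzmk, −1.49 ± 0.32 (0.0198) for Oas3 and −0.95 ± 0.15 (0.00401) for Sh2d1b1. The Gzmk call ended without WT lung or WT naive replicate 3 (adjusted p up to 0.0606), and the Oas3 call without WT lung replicate 3 or KO lung replicate 3 or 4 (up to 0.0589). Fcer1g differed too (−2.14 ± 0.35, adjusted p = 0.00613), its KO change being between the residual levels given above.

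**Figure D5:**
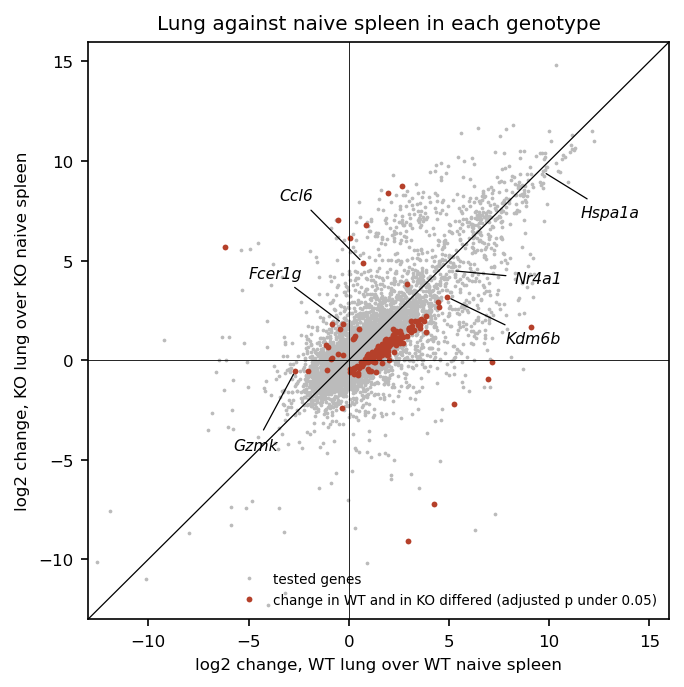
Log2 change of each tested gene in KO (lung over naive spleen, vertical axis) against the log2 change in WT (horizontal axis); red points are the 164 genes whose changes differed with an adjusted p under 0.05, and the diagonal marks equal change. Nr4a1 and Hspa1a lie close to the diagonal, while Ccl6 and Fcer1g lie above it and Kdm6b below it.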

How the data were processed

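Poly(A)-selected, directional libraries of mouse NK cells were sequenced, per the labels' protocols. The authors deposited expected counts per gene, and cutadapt 1.9, STAR 2.5.2a, RSEM 1.2.30 and the genome GRCm38 are named in the submitters' processing notes. The deposited expected counts, of which 9.98% were not whole, were rounded to whole numbers. Genes low in all 6 groups were filtered (filterByExpr), and edgeR 4.0.16 in R 4.3.3 was run with TMM scaling, a quasi-likelihood test over all 24 libraries with no covariate, and Benjamini-Hochberg adjustment at 0.05. CPM values use TMM library sizes. Totals of 9.77 to 32.10 M counts in the 8 WT libraries limit precision most for low genes. In simulated data for WT lung against WT naive spleen on 14275 genes, 35.5% of 1.5-fold, 66.5% of 2-fold and 85% of 4-fold changes were recovered. In the same data 3.4% of calls were false. The simulation changed 200 genes per fold size in random directions, at the trended dispersion. It held no length or GC trend and no deviating library, so the 3.4% is not the false share among the calls reported here.

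Alternatives were DESeq2 1.42.0, voom weights in limma 3.58.1, upper-quartile scaling, other filters and library sets, leaving out each WT lung and WT naive library and, chosen after seeing the data, each KO lung and KO naive library, and an offset for exon length and GC content, from values held for 98.6% of tested genes. The comparison, its members and the 39 gene lists were chosen with earlier results of these data known, so a list's count is no independent evidence. The text names Fcer1g, the top 12 changes in each direction without overlap (mean of at least 1 CPM, and again at least 50 CPM in the higher group), of each list up to 6 members by smallest p and 3 by level, the leading genotype differences, and cell markers. Part of these is printed. Chordc1, Cyld, Egr1, Egr3, Fos, Hsph1, Il7r, Itgae, Jun, Nr4a3, Ptger2, S1pr1, S1pr5, Tbx21, Tigit, Tnf, Tyrobp and Zfp683 were chosen after their values were seen. No pair of libraries held identical values.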

Additional observations from a re-analysis of the deposited data

Results flagged for a closer look

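For 32 of the 352 combinations of a named gene and a WT group, the highest or lowest of the 4 libraries stood apart from the other 3, with a gap past Dixon's critical value at the 95% level; chance does so in about 1 in 20 groups. Of the 32, 21 were in WT lung, 14 of them in replicate 1, the library with the fewest counts, and 11 were in WT naive spleen. The share of the range is given in parentheses. In WT lung, replicate 1 was highest for Atp5c1 (0.847), Ccl4 (0.913), Cd160 (0.894), Clec2d (0.836), Egr3 (0.842), Gadd45b (0.862), Klra4 (0.915), Nfil3 (0.850), Pmepa1 (0.834), Rgs1 (0.909) and Rps14 (0.969). In WT lung, replicate 1 was lowest for Bhlhe40 (0.945), Ptger2 (0.940) and Zeb2 (0.861). In WT lung, replicate 2 was highest for Il7r (0.844) and Prf1 (0.837). Lung replicate 3 was highest for Tfrc (0.832). Lung replicate 3 was lowest for Ccl6 (0.921) and Lyz2 (0.856). In WT lung, replicate 4 was highest for Plk2 (0.834) and Sftpc (0.845). In WT naive spleen, replicate 1 was highest for Clec2d (0.863) and Odc1 (0.881). In WT naive spleen, replicate 1 was lowest for Mcl1 (0.846). Spleen replicate 2 was highest for Chi3l3 (1), Hsp90aa1 (0.894) and Scgb1a1 (1). Spleen replicate 2 was lowest for Tox (0.846). In WT naive spleen, replicate 3 was highest for Plk2 (0.9). In WT naive spleen, replicate 3 was lowest for Bhlhe40 (0.961). Spleen replicate 4 was highest for Prf1 (0.9). Spleen replicate 4 was lowest for Itgae (0.861).

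The difference between lung and naive spleen itself differed between WT and KO for 14 named genes, by edgeR's test of the difference. The WT change minus the KO change, in log2, was positive for Clec2d (1.39), H2-Q6 (0.87), Hnrpdl (1.45), Kdm6b (1.73), Klf11 (1.69), Myh9 (2.43), Nolc1 (1.07) and Smad7 (0.89). It was negative for Ccl6 (−4.20), Crem (−0.93), Fcer1g (−2.14), Gzmk (−2.14), Oas3 (−1.49) and Sh2d1b1 (−0.95). All 14 kept their sign when any one of the 16 lung and naive libraries was left out, the shallow WT lung replicate 1 and KO naive replicate 1 included, and 9 kept their call; Gzmk, H2-Q6, Klf11, Oas3 and Smad7 did not.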

How the results depend on the processing

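Of the named genes, 160 were called in WT lung against WT naive spleen. Of these, 148 kept their direction and call in every alternative that tested them, the 2-fold threshold aside. A gene that a setting dropped, by its filter or as a marker of other cells, was not counted as changed there. Whichever single WT lung or WT naive library was left out, 153 kept their direction and call wherever tested. Many named genes were chosen for a small p or a large change, so these counts do not stand for all calls. Of all 7021 calls, 5153 kept call and direction with the length and GC offset and 5812 with the 8 WT libraries alone. Genes not tested in a setting counted there as not kept. Of the 160, 30 changed by less than 2-fold. A 2-fold threshold left 2593 higher and 599 lower for WT, 2024 and 485 for KO, and 15 genes with the more positive change in KO. Leaving out single WT lung or WT naive libraries gave 3788 to 4256 higher and 2502 to 3223 lower in WT, 22 to 24 lists with more members higher than lower and 17 to 20 with a median above that of all genes. Leaving out any one of the 16 lung and naive libraries gave 3145 to 3693 higher and 2255 to 2787 lower in KO, with the KO libraries left out as a choice made after seeing the data. The length and GC offset turned Gnas to −0.98, Eno1 to −0.71, Gzma to 0.20, Klra8 to 0.40, B2m to 0.31, Klrd1 to 0.018 and Npm1 to 0.12 on the log2 scale.

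The genotype difference depended most on settings, with 140 genes changing more positively in WT and 24 more positively in KO as reported. It gave 63 and 8 with the 16 lung and naive libraries alone, 424 and 98 with DESeq2 and 398 and 104 with voom weights. Leaving out the libraries under 15 M counts, a setting chosen after seeing the data, gave 359 and 147. A stricter filter gave 243 in the WT direction. The offset gave 178 in the WT and 63 in the KO direction, and upper-quartile scaling gave 45 in the KO direction. Leaving out any one of the 16 lung and naive libraries gave 61 to 410 and 9 to 160. The cause was not tested. The replicate block gave 4053 higher and 2912 lower genes for WT, and 105 and 16 for the genotype difference. Deviations of same-numbered WT lung and WT naive libraries from their group means correlated at 0.01, 0.01, −0.04 and 0.10, and no pairing was assumed. Such values cannot exclude a shared batch. The depth of WT lung replicate 1 and KO naive replicate 1 limits what low genes can show.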
